A study of Mus musculus with 12 samples.

Results

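The plasminogen activators and the proteins that bind or inhibit them were followed in mouse prostate through 6 genes: Plau, Plat, Plaur, Serpine2, Serpinb2 and Serpinf2. The genes were picked by symbol, out of 28075 genes counted in either generation, and all 6 had a row in both the F1 and the F3 table. In F1, Plau averaged 4.75 ± 1.42 CPM (the usual counts-per-library unit, read counts scaled to library size; SD, n = 2) in controls and 426 ± 350 CPM (SD, n = 3) in chlordecone males, whereas in F3 it averaged 3.81 ± 0.951 and 3.25 ± 0.354 CPM (SD, n = 3 each). Serpine2, the most abundant inhibitor among the 6, was higher in every F1 chlordecone library than in either F1 control and lower in every F3 chlordecone library than in any F3 control. Groups lay apart in this way, in either direction, for 31.3% of all genes tested in F1 and 16.6% in F3. The genes were chosen with their values known. Their levels, fold changes and places on either side of a test threshold are therefore a description, with no p-value read as support.

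Plasmin is a broad serine protease that dissolves fibrin and cuts matrix proteins and latent growth factors. It is released from plasminogen, a protein made mainly by the liver, by either of a pair of activators. These are urokinase (Plau), which works largely at the cell surface on its receptor (Plaur), and tissue plasminogen activator (Plat), which works largely on fibrin. Serpins restrain the system: protease nexin-1 (Serpine2) blocks urokinase, plasmin and thrombin, plasminogen activator inhibitor 2 (Serpinb2) blocks urokinase, and alpha2-antiplasmin (Serpinf2) blocks plasmin itself. In the male tract, urokinase and protease nexin-1 are known as products of accessory glands and of the duct epithelia.

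Messenger RNA came from the prostate of first-generation (F1) and third-generation (F3) male mice in 4 groups. Chlordecone, also called kepone, is an organochlorine insecticide. Pregnant females (F0) of the exposed lines received 100 µg/kg/day over embryonic days E6.5-E15.5. The F1 chlordecone males were thus the embryos carried during dosing, whereas in F3 the exposure was ancestral only. Neither F1 nor F3 males are described as dosed directly. The labels give no strain, genotype or age and do not say what the control females received, or whether samples were separate animals, pools or litters, so p-values measure only the spread between these samples, which may be technical. The labels list 12 samples, 3 to a group; F1 control 3 was not analysed here, which left 11 libraries and 2 controls in F1.

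The F1 libraries held 17228539 to 28061760 counts and the F3 libraries 71672418 to 114762135, so low levels are better resolved in F3. By chi-square per gene the F1 controls were the closest F1 pair (16.3, against 254 to 582), whereas by r of log2 CPM across genes chlordecone 1 and 3 were closer (0.971, against 0.959 for the controls). The F1 controls were not copies of 1 library: they differed by more than sampling noise and were kept as 2 samples. Markers of prostate secretory epithelium summed to 40640 to 95460 CPM in F1 and 88870 to 106800 CPM in F3. Markers of the seminal vesicle, a neighbouring gland, summed to 117500 and 120200 CPM in the F1 controls and 186400 to 528600 CPM in the F1 chlordecone libraries, against 9.59 to 67.0 CPM in F3. The seminal vesicle sum was thus above the prostate secretory sum in every F1 library, although the label names prostate. The sums hold different genes and were not scaled by length, so the share of each tissue was not measured. Levels set side by side between generations are descriptions only.

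Both activators are trypsin-like serine proteases, and the coding stretch around their active-site serine is shown because it holds the catalytic motif that the enzymes share. The sequences are from the GENCODE M21 transcripts (GRCm38), 5′ to 3′ on the coding strand, with the codons of the conserved serine motif in capitals. The stretch spans coding bases 1102 to 1167 of the 1299 in Plau and 1498 to 1563 of the 1677 in Plat.
Plau: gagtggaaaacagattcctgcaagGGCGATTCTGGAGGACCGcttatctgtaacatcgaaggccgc
Plat: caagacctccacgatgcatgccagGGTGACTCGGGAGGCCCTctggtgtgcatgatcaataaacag
The stretches had 34 of 66 bases in common (51.5%), and within the capitals 13 of 18. The transcripts are therefore distinct even in this conserved region.

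Plau (ENSMUSG00000021822, chr14:20836660-20843385, plus strand) was the gene with the widest range. In F1 it had 5.76 and 3.75 CPM in control 1 and 2 (110 and 80 counts) and 366, 109 and 802 CPM in chlordecone 1, 2 and 3 (9243, 2008 and 17438 counts). Every F1 chlordecone library lay far above both controls, and chlordecone 3 was the highest and chlordecone 2 the lowest of the 3. The F1 means differed 89.6-fold, a fitted log2 fold change of 6.48 (SE 0.938), which ranked 96 among 17804 genes tested. In F3 the controls had 2.75, 4.58 and 4.11 CPM and the chlordecone libraries 2.87, 3.31 and 3.57 CPM. The F3 groups overlapped and stood close to the F1 controls, with a log2 fold change of -0.23 (SE 0.241).

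**Figure D1:**
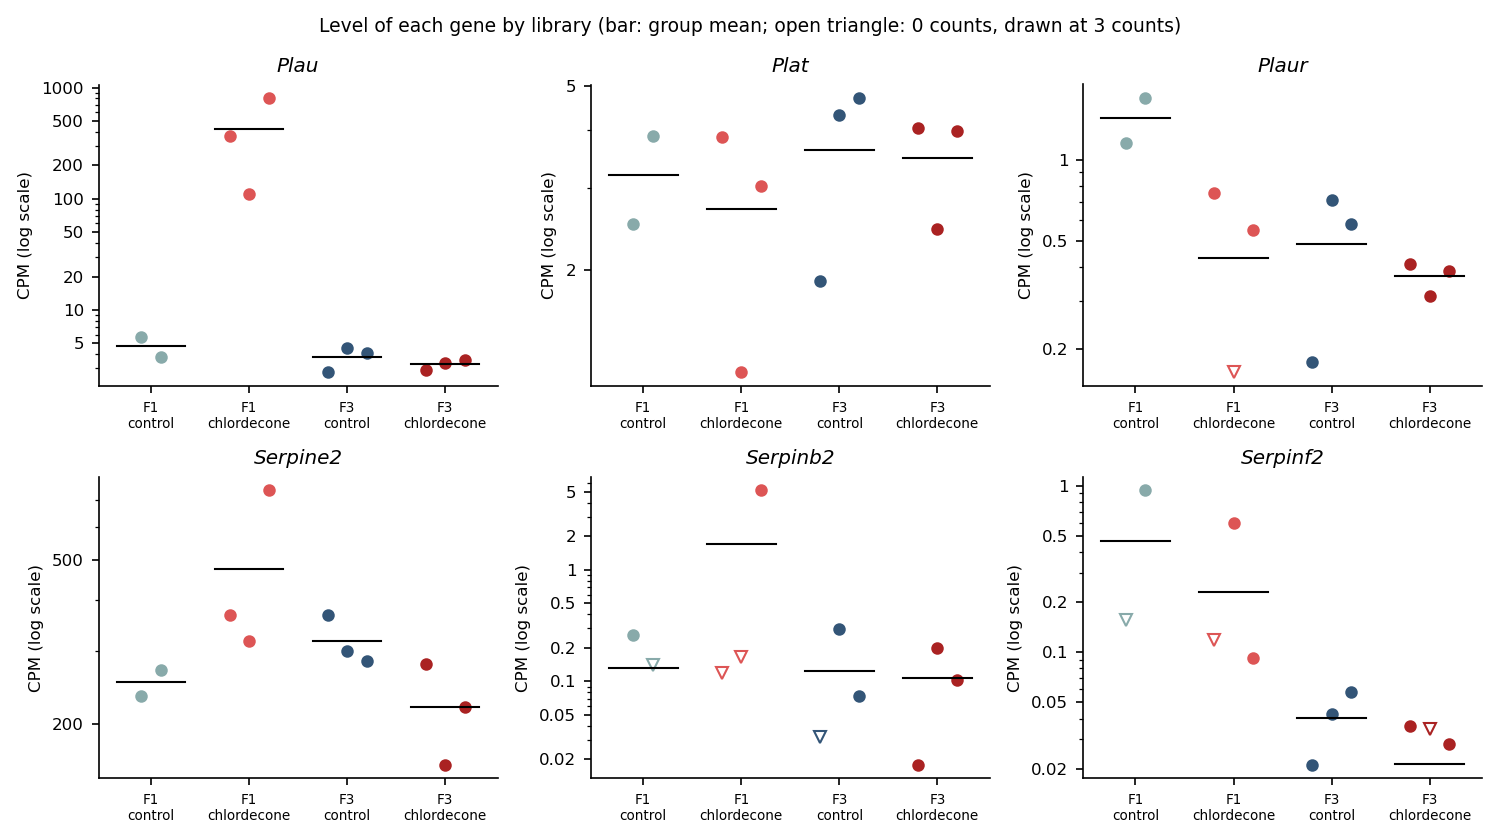
Level of each of the 6 genes in every library, in CPM on a log axis that differs between panels, by group of F1 and F3. Points are libraries, bars are group means, and open triangles are libraries with 0 counts, drawn at the CPM of 3 counts. Plau in F1 chlordecone sits at 109 to 802 CPM, against 2.75 to 5.76 CPM in the other 3 groups.

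Markers of other tissues moved in the same F1 libraries. The 5 vas deferens and epididymis markers, led by Akr1b7 and Crisp1, summed to 25.0 CPM in each F1 control and to 44270, 103 and 13930 CPM in chlordecone 1, 2 and 3. Nearly all of each sum came from Akr1b7 and Crisp1, at up to 29050 and 15220 CPM in the chlordecone libraries. Defb2, Adam7 and Lcn5 reached at most 5.50, 1.635 and 1.27 CPM there. Of these 5 markers, 2 were at 0 in control 2 and 1 in chlordecone 2. Against the mean of the F1 controls, Plau stood 6.27, 4.52 and 7.40 log2 units higher in chlordecone 1, 2 and 3, and the duct markers 10.8, 2.05 and 9.12. With chlordecone 1 and 3 both left out, a choice made after seeing the data, the fitted Plau log2 fold change was 4.53 (SE 0.255), and that lone library is assumed to vary like the controls.

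Other lists differed as well. Seminal vesicle markers stood 0.649, 1.85 and 2.15 log2 units above the control mean in chlordecone 1, 2 and 3. The 6 macrophage and leukocyte markers, as a sum, stood 1.09, 0.137 and 3.43 above it, and the 5 urothelial markers 1.44, -0.794 and 1.03. Of the 286.8 CPM of the leukocyte list in chlordecone 3, 246.4 CPM came from Lyz2. Chlordecone 3 was thus highest for Plau, seminal vesicle and leukocyte markers, while chlordecone 1 was highest for duct, smooth muscle and urothelial markers. Adipose (1.74, 3.49 and 1.43), peripheral nerve (0.643, 1.81 and 0.902) and basal epithelial markers (0.766, 1.36 and 0.871) were above the control mean in all 3 and highest in chlordecone 2, where Plau was lowest. In F3 the duct markers summed to only 0.199 to 0.512 CPM. In whole tissue, more cells of a type and more RNA per cell cannot be told apart, and the part of these tissues in the Plau level was not tested.

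**Figure D2:**
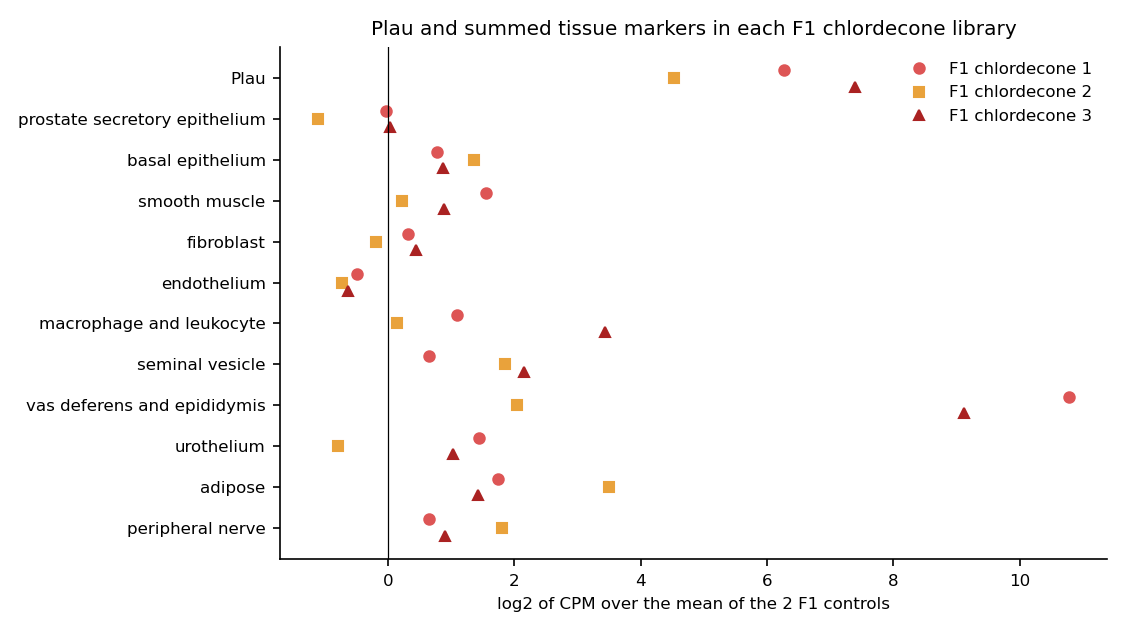
Plau and the summed CPM of 11 marker lists in each F1 chlordecone library, as log2 of the level over the mean of the 2 F1 controls (0, vertical line). Plau lies between 4.52 and 7.40 in the 3 libraries, and the vas deferens and epididymis list between 2.05 and 10.8. The latter sum is mostly Akr1b7 and Crisp1.

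Genes beside Plau on chromosome 14 had smaller F1 fold changes. Within 250 kb on each side, 13 other genes were tested in F1, with log2 fold changes from -1.41 to 0.99 and a median of 0.04.

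The genes most like Plau over the 11 libraries, by Pearson's r of log2 CPM centred within each generation, were Clu (r = 0.992), Samd9l (0.985) and Pygl (0.979), out of 11166 genes compared. Clu encodes clusterin, a secreted chaperone, and Pygl the liver form of glycogen phosphorylase. Clu had 4.03 and 4.22 CPM in the F1 controls and 304, 94.5 and 872 CPM in chlordecone 1, 2 and 3. The chlordecone libraries stood in the same order as for Plau, and the controls in the opposite order. Within F3 the r with Plau was 0.571 for Clu, 0.521 for Samd9l and 0.902 for Pygl. The r over all libraries rests mainly on F1 for all 3 genes, as Plau ranged far more widely there. Only Pygl kept a high r within F3. The libraries share their tissue makeup, and the values describe likeness only.

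Plat (ENSMUSG00000031538, chr8:22757727-22782844, plus strand), the other activator, had 2.51 and 3.89 CPM in the F1 controls and 3.88, 1.20 and 3.04 CPM in F1 chlordecone 1, 2 and 3. In F3 it had 1.89, 4.31 and 4.70 CPM in controls and 4.04, 2.45 and 3.98 CPM in chlordecone libraries. The groups overlapped in both generations, with log2 fold changes of -0.24 (SE 0.695) in F1, where the sign changed without control 2 or chlordecone 2, and -0.06 (SE 0.361) in F3. Its nearest genes in the likeness ranking were Nudt19 (r = 0.957), Aspn (0.945), which encodes the matrix protein asporin, and Spryd7 (0.940), over the same 11 libraries.

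Plaur (ENSMUSG00000046223, chr7:24462484-24475968, plus strand), the urokinase receptor, was scarce throughout. It had 1.15 and 1.69 CPM in the F1 controls (22 and 36 counts) and 0.752, 0 and 0.552 CPM in F1 chlordecone 1, 2 and 3 (19, 0 and 12 counts). All F1 chlordecone libraries lay below both controls, the opposite side from Plau, where 31.3% of all genes tested had groups apart in either direction. The log2 fold change of -1.68 had an SE of 1.48, and the 0 of chlordecone 2 allows up to 0.164 CPM (3 counts; this and the other floors cover counting error only). In F3 the controls had 0.180, 0.707 and 0.581 CPM and the chlordecone libraries 0.413, 0.314 and 0.387 CPM, and the groups overlapped.

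Serpine2 (ENSMUSG00000026249, chr1:79794197-79861180, minus strand), encoding protease nexin-1, had 233 and 270.5 CPM in the F1 controls and 368, 318 and 737 CPM in F1 chlordecone 1, 2 and 3. All 3 chlordecone libraries lay above both controls, and chlordecone 3, which was also highest for Plau, stood apart. The F1 groups did not overlap, in either direction, for 31.3% of all genes tested. The means were 252 ± 26.5 CPM (SD, n = 2) and 474 ± 229 CPM (SD, n = 3), with a log2 fold change of 0.91 (SE 0.42). Without chlordecone 3 the log2 fold change was 0.45 (SE 0.309), and without chlordecone 1 and 3 together it was 0.34 (SE 0.151).

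In F3 the order of the groups was the other way round. The controls had 367, 300.4 and 285 CPM of Serpine2 and the chlordecone libraries 279, 159 and 219 CPM. The groups did not overlap, as for 16.6% of all genes tested in F3, and the gap between the lowest control and the highest chlordecone library was small. The means were 317 ± 43.6 and 219 ± 60.1 CPM (SD, n = 3 each), with a log2 fold change of -0.53 (SE 0.21). The 5 seminal vesicle markers summed to 45.5, 67.0 and 10.3 CPM in the F3 controls and 12.8, 15.8 and 9.59 CPM in the chlordecone libraries, none of them at 0, and all 5 had a negative fold change in F3. In F1 the summed level of the list was higher in all 3 chlordecone libraries, but its members split, with 4 positive and 1 negative fold change. The negative one was Svs6, at -0.35 on the log2 scale. Svs4, at 0.70, had 57390, 289900 and 40380 CPM in chlordecone 1, 2 and 3, against 77790 and 80990 in controls. Its level was thus below both controls in 2 of the 3. The part of the seminal vesicle list in the Serpine2 level was not tested. The genes most like Serpine2 were Oas1a (r = 0.949), an interferon-induced synthetase, Ezh2 (0.945), a histone methyltransferase, and Zfp809 (0.916). Within F3 these r were 0.861, 0.909 and 0.749. Oas1a had 0 CPM in both F1 controls and 0.712, 0.327 and 4.28 CPM in chlordecone 1, 2 and 3. It reached the mean of 1 CPM needed for the ranking in F1 only through chlordecone 3, where Serpine2 was also highest.

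Serpinb2 (ENSMUSG00000062345, chr1:107511423-107535478, plus strand), encoding plasminogen activator inhibitor 2, had at most 21 counts in 10 of 11 libraries. It had 0.262 and 0 CPM in the F1 controls and 0, 0 and 5.15 CPM in F1 chlordecone 1, 2 and 3. The level in chlordecone 3 came from 112 counts, and this was the library with the highest Plau and the highest leukocyte marker sum, mostly Lyz2. The 3 F3 controls had 0, 0.297 and 0.0747 CPM and the F3 chlordecone libraries 0.0180, 0.198 and 0.104 CPM. It shares 291 exon bases with Serpinb10 on the same strand, so its reads are uncertain, and it was too low in F1 to be tested there.

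Serpinf2 (ENSMUSG00000038224, chr11:75431732-75439591, minus strand), encoding alpha2-antiplasmin, a liver product, reached 0.937 CPM (20 counts) in F1 control 2 and 0.5995 CPM (11 counts) in F1 chlordecone 2. It was at 0, 0 and 0.0920 CPM in F1 control 1 and chlordecone 1 and 3. In the 6 F3 libraries it ran from 0 to 0.0581 CPM, at most 7 counts, and was too low to be tested. No difference between groups was detectable at this depth.

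Against all genes, the calls were few. By edgeR's quasi-likelihood test with Benjamini-Hochberg adjustment, 5 of 17804 genes (0.0281%) passed in F1 and 0 of the 5 members tested; at an unadjusted p under 0.05 these were 11.5% of all genes and 1 member, Plau. In F3, 10 of 16766 genes (0.0596%) passed and 0 of 5 members tested, and 1 member, Serpine2, was among the 10.6% at an unadjusted p under 0.05. The DESeq2 Wald test called 4.04% of genes in F1, with Plau among them, and 1.49% in F3 with no member. Without F1 chlordecone 2, edgeR called 15% of genes in F1, with Plau and Serpine2 among them; leaving out any other single F1 library called no member. In F1 the groups did not overlap for 31.3% of genes tested, and for Plau, Serpine2 and Plaur. In F3 they did not overlap for 16.6%, and for Serpine2.

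The effect in F3 minus that in F1 was fitted over all 11 libraries. For Plau the difference was -6.63 (SE 0.833) on the log2 scale and lay past the threshold, as did 122 of 16989 genes (0.718%). It was 1 of 6 members to do so, and without F1 control 2 it no longer passed, at -6.31 (SE 1.11). For Serpine2 the difference was -1.38 (SE 0.466) and missed the threshold, although the DESeq2 test, which called 6.80% of genes, placed it past. The differences of Plat (0.27, SE 0.701) and Plaur (1.39, SE 1.38) were smaller than, or about as large as, their SE. Those of Serpinb2 (-3.84, SE 2.98) and Serpinf2 (0.28, SE 2.91) rest on a few counts and have no stable size.

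**Figure D3:**
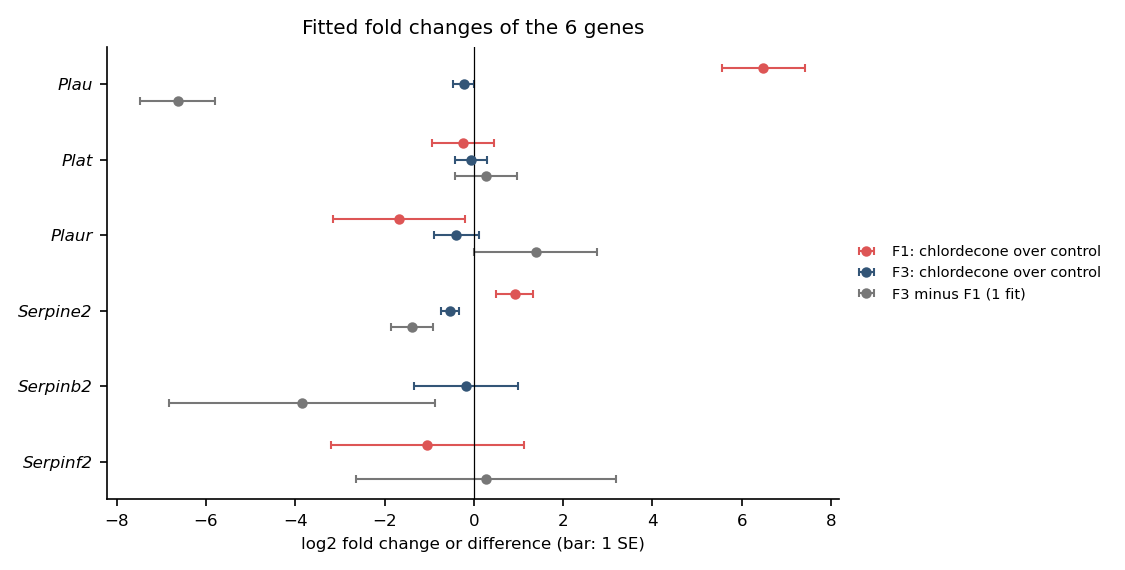
Fitted log2 fold change of chlordecone over control in F1 and F3, and the difference of F3 minus F1, for each of the 6 genes where it was tested, with bars of 1 SE. Plau stands at 6.48 in F1, -0.23 in F3 and -6.63 for the difference, and Serpine2 at 0.91, -0.53 and -1.38.

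Levels of different genes were compared per kilobase, by 2 length models: all merged exons, and the longest protein-coding transcript, both of the GRCm38 annotation, whose gene positions the F1 table seldom shares. Per kilobase of merged exons, Serpine2 was the most abundant of the 6 genes in both F1 controls and in all F3 libraries, with 30.4 CPM per kb in F1 controls, 38.3 in F3 controls and 26.4 in F3 chlordecone. Plau came next on this length model, at 2.01, 1.61 and 1.37 CPM per kb, then Plat and Plaur, at 0.513 and 0.542 in F1 controls. Plat and Plaur differed there by less than their spread, whereas in F3 controls Plat had 0.582 and Plaur 0.187 CPM per kb. By the longest transcript Serpine2 still led in these groups. Plau and Plat were then close in F3, at 1.63 and 1.44 CPM per kb in controls and 1.39 and 1.38 in chlordecone. Plat lay above Plau in F3 control 3 and in F3 chlordecone 1 and 3, and below it in the other F3 libraries.

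The share of Plau in the summed level of the 6 genes was 7.73% and 4.41% in the F1 controls and 2.54% to 6.61% in F3. In F1 chlordecone 1, 2 and 3 it was 77.3%, 54.4% and 78.7%, while that of Serpine2 was 22.2%, 45.1% and 20.6%, against 89.2% and 90.9% in the controls. Plau thus made up more than Serpine2 in all 3 of these libraries on this length model. By the longest transcript the Plau share was 48.1%, 24.4% and 50.4%, and the ratio of Plau to Serpine2 was 0.939, 0.325 and 1.03. Which of the pair was more abundant in F1 chlordecone therefore depended on the length used, but the larger Plau share than in any other group did not.

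**Figure D4:**
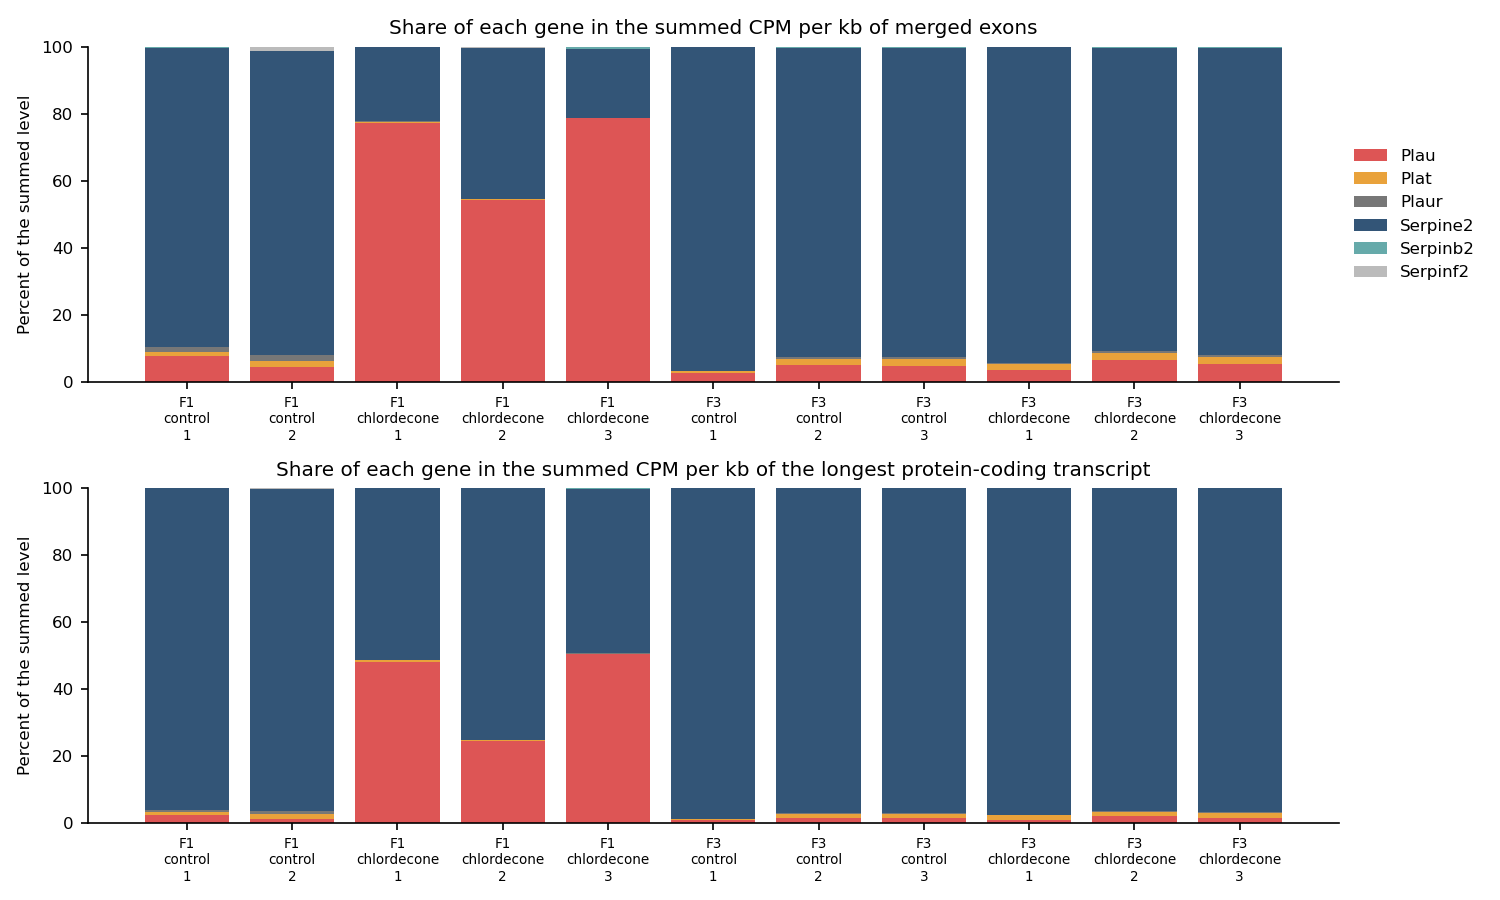
Share of each of the 6 genes in their summed CPM per kb, in percent, for every library, by merged exons (top) and by the longest protein-coding transcript (bottom). The Plau share in F1 chlordecone 1, 2 and 3 is 77.3%, 54.4% and 78.7% in the top panel and 48.1%, 24.4% and 50.4% in the bottom panel.

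Other genes of the pathway were counted from 5 lists with 40 genes. In F1, 35 were tested and 0 passed with edgeR; 8 had an unadjusted p under 0.05, all higher in chlordecone, where 7.93% of all genes did so. The DESeq2 Wald test called 6 of the 35, all higher: Serpini1, Hpn, Anxa2, Itgam, Lrp1 and S100a10, where it called 4.04% of all genes. Hpn, Itgam and Lrp1 fall outside the naming rule and were chosen after their values were seen. The median log2 fold change was 0.44, against 0.02 over all genes tested. In F3, 30 were tested and 0 passed with edgeR or DESeq2, 3 had an unadjusted p under 0.05 (2 higher, 1 lower), and the median was 0.01 against -0.01. Without F1 chlordecone 2, 12 pathway genes passed with edgeR in F1, 10 of them higher, where 2604 genes passed in all.

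Among genes that bring plasminogen to the cell surface, the median log2 fold change was 1.42 over 5 in F1 and -0.23 over 4 in F3. Annexin A2 (Anxa2) and its partner S100a10 form a surface complex that binds plasminogen and tissue activator. Anxa2 had 22.9 and 21.4 CPM in the F1 controls and 88.3, 38.5 and 67.4 CPM in F1 chlordecone 1, 2 and 3 (log2 fold change 1.55, SE 0.377, adjusted p = 0.215 by edgeR's quasi-likelihood test). S100a10 had 30.9 and 32.6 against 196.5, 37.3 and 96.8 CPM (1.80, SE 0.615, edgeR adjusted p = 0.326). Without chlordecone 1 the S100a10 fold change was 1.07, and without chlordecone 1 and 3 together it was 0.23, with Anxa2 then at 0.80. Both genes passed without chlordecone 2. Both were higher in all 3 chlordecone libraries and, unlike Plau, highest in chlordecone 1, where duct and smooth muscle markers were also highest. Plg, plasminogen itself, had 0 to 0.786 CPM in F1, and it is named here outside the rule because it is the substrate.

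Among other inhibitors, Serpini1 (neuroserpin, an inhibitor of tissue activator) had 0.995 and 0.468 CPM in the F1 controls and 2.85, 7.90 and 10.4 CPM in chlordecone 1, 2 and 3 (log2 fold change 3.26, SE 0.776, edgeR adjusted p = 0.21). Serpina5, protein C inhibitor, varied widely within groups. It had 14.5 and 18.4 CPM in F1 controls against 3.01, 21.9 and 0.966 CPM, and 52.5, 0.0566 and 0.465 CPM in F3 controls against 2.41, 0.755 and 31.7 CPM. Its F3 log2 fold change of -0.61 (SE 1.86) became 5.35 without F3 control 1, and its F1 value of -0.93 (SE 1.01) was -3.04 without chlordecone 2, past the edgeR threshold, and 0.42 without chlordecone 1 and 3 together.

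The receptor list, which includes receptors that clear or activate these proteases, had a median of 0.97 over 6 genes in F1 and 0.02 over 7 in F3. Igf2r, the mannose-6-phosphate receptor, had a log2 fold change of 0.70 (SE 0.378) in F1, which was -0.15 without chlordecone 1 and 3 together, and 0.02 in F3. Itgav, an integrin subunit, had 71.2 and 74.3 CPM in the F1 controls and 52.2, 48.0 and 52.6 CPM in chlordecone libraries (-0.51, SE 0.233, edgeR adjusted p = 0.45). Itgam is both on this list and among the leukocyte markers.

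The neighbouring serine proteases had a median of 0.16 over 13 genes in F1 and 0.06 over 10 in F3. Tmprss2, a membrane protease of prostate epithelium, had log2 fold changes of -0.12 (SE 0.403) in F1 and 0.10 in F3, and St14, encoding matriptase, 0.59 (SE 0.326) and -0.01. The substrate and downstream list had medians of 0.41 over 7 and 0.04 over 6 genes. Mmp14, a membrane metalloprotease, had 0.44 and 0.32, and Thbs1, encoding thrombospondin-1, 0.70 (SE 0.609) and -0.60 (SE 0.417). None of these 4 genes passed the edgeR threshold in either generation with all libraries. Without F1 chlordecone 1 and 3 together, which leaves 1 chlordecone library, Tmprss2 was -1.07, Mmp14 0.93 and Thbs1 -0.74. St14 passed without F1 chlordecone 2 (0.79, edgeR adjusted p = 0.0372).

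**Figure D5:**
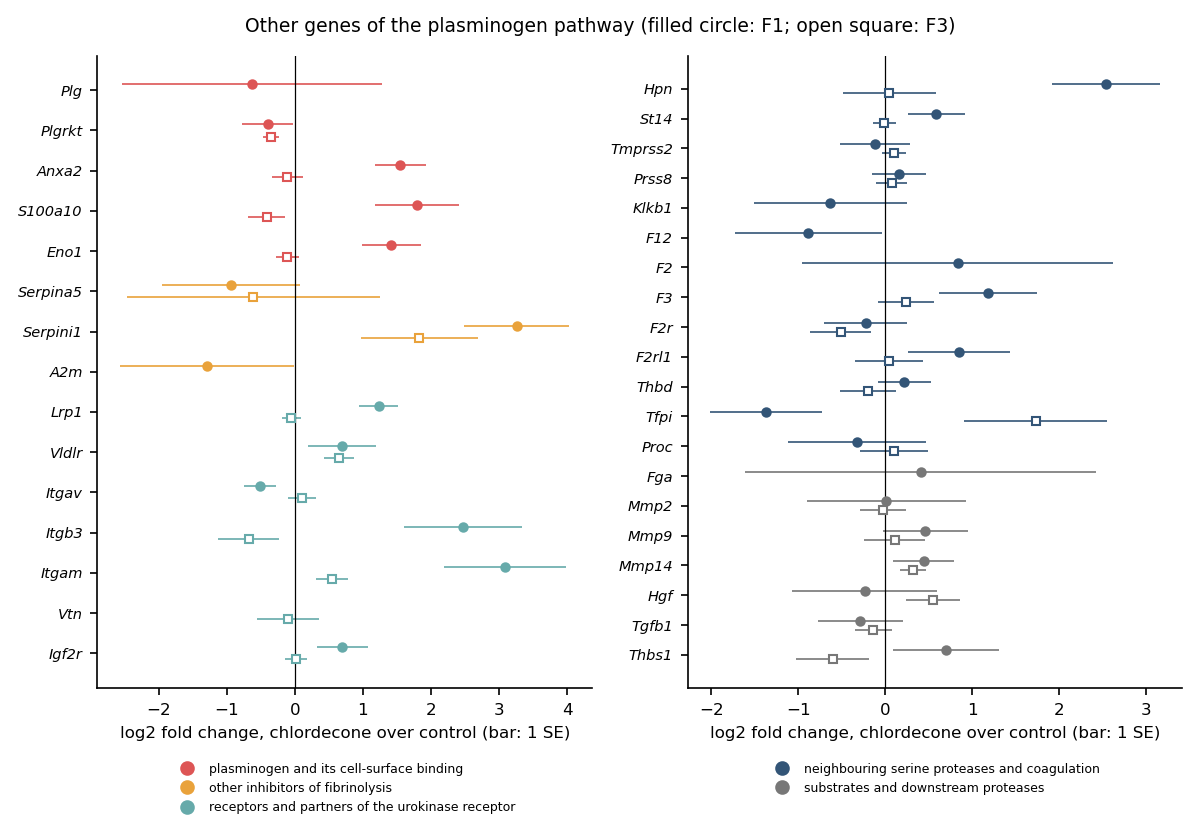
Log2 fold change of chlordecone over control for other pathway genes that were tested, coloured by list, with filled circles for F1, open squares for F3 and bars of 1 SE. In F1, Serpini1 lies at 3.26, S100a10 at 1.80 and Anxa2 at 1.55, and no gene of the 5 lists passed the edgeR threshold in either generation.

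Serpins of the same clades as the 3 inhibitors gave a last comparison. Of 14 listed, 10 were tested in F1 and 0 passed with edgeR, with 2 higher and 1 lower at an unadjusted p under 0.05 and a median log2 fold change of 0.19, beside 11.5% of all genes and a median of 0.02. In F3, 9 were tested and 0 passed, with 1 higher and 1 lower at that p and a median of -0.13, beside 10.6% and -0.01. Serpinb6a, a cytosolic protease inhibitor, had log2 fold changes of -0.09 in F1 and -0.13 in F3. Without F1 chlordecone 1 and 3 together, its F1 value was -0.76. Serpinb1a, an inhibitor of neutrophil elastase, had 113.5 and 122.7 CPM in the F1 controls and 49.5, 15.4 and 41.5 CPM in chlordecone 1, 2 and 3, lower in all 3 libraries (-1.73, SE 0.444, edgeR adjusted p = 0.226). DESeq2 placed it past the threshold in F1, and in F3 its log2 fold change was 0.31 (SE 0.152).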

How the data were processed

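In both generations the authors deposited 1 table of whole-number read counts, not normalized, by Ensembl gene (19091 genes in F1, 26023 in F3), with columns headed C and K; K was read as kepone. The lowest total of a row was 20 in F1 and 1 in F3, so the tables were filtered differently. The submitters' processing notes name HTSeq 0.6.1, DESeq2 1.6.3, TopHat2 2.0.14, bcl2fastq 2.17.1.14 and Bowtie2 2.1.0, with the build mm10. Annotation release and strand setting: not given in the sources used here. The deposited fold changes and p-values were not used.

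Counts were tested within each generation with edgeR 4.0.16 in R 4.3.3 (filterByExpr with minimum count 10 and total 15, TMM, quasi-likelihood F test, two-sided, Benjamini-Hochberg adjusted p under 0.05). The F1 fit was planned as 3 against 3 and ran as 2 against 3. The difference between generations was an interaction in 1 fit over genes in both tables. The script was tested on simulated data. CPM uses TMM-scaled library sizes, and likeness used log2 CPM with a pseudocount of 0.5. Gene positions and lengths come from GENCODE M21 (GRCm38), in which 19082 F1 and 25835 F3 identifiers were found. Only 2.11% of the former, none of the members included, and 78.9% of the latter had the annotation's start and end, so the gene models counted in F1 may differ from those whose positions and lengths are printed.

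The members and all lists were chosen with earlier results of these data known. All members were named; of each pathway list and of the same-clade serpins, genes past the threshold and the 2 with the highest mean CPM; and for each member averaging at least 1 CPM in both tables, the 3 genes most like it. Deviations of same-numbered control and chlordecone samples from their group means had r = 0.0599 and 0.0655 in F1, and 0.207, -0.0772 and -0.0716 in F3. With 2 F1 controls, the deviations of control 2 mirror those of control 1, so the F1 values cannot test pairing. In F3 not every sample correlated best with its own number, and the labels name no pairs. Numbers were therefore not taken as pairs. Alternatives were a replicate block, leaving out each library, the Wald test of DESeq2 1.42.0 or its size factors alone, 1 fit of both generations, and a filter at a mean of 1 CPM or none. The values of 1 listed pathway gene are not reported here.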

Additional observations from a re-analysis of the deposited data

Results flagged for a closer look

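For Plau the difference in the fit of all libraries, F3 minus F1, was -6.63 (SE 0.833) on the log2 scale. The F1 groups lay apart and the F3 groups overlapped. The difference lay past the threshold, as for 0.718% of genes, but not without F1 control 2. Seminal vesicle markers summed to at least 117500 CPM in every F1 library and at most 67.0 CPM in F3. The part of tissue makeup in the difference was not tested. For Serpine2 the difference was -1.38 (SE 0.466) and missed the threshold of the edgeR interaction test. Every F1 chlordecone library lay above the F1 controls and every F3 chlordecone library below the F3 controls. Groups lay apart, in either direction, for 31.3% of all genes tested in F1 and 16.6% in F3. Both genes were chosen with their values known.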

How the results depend on the processing

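Plau kept its direction in F1, F3 and their difference under every alternative run. Its F1 log2 fold change ran from 5.64 to 6.94 when 1 library was left out and was 4.53 without F1 chlordecone 1 and 3 together. The count of genes past the threshold in F1 (5) became 21 with no filter, 719 with the DESeq2 Wald test, 929 in 1 fit of all libraries, 1226 without chlordecone 1 and 3 together, and 0 to 2604 leaving out 1 library. In F3 (10) it became 38, 249 and 2 under the first 3 of these, and 7 to 41 leaving out 1 library. For the difference (122) it was 189 with a mean of at least 1 CPM, 1156 with DESeq2, and 27 to 2320 leaving out 1 library. Without F1 chlordecone 1 and 3 together, Igf2r (-0.15), Thbs1 (-0.74), Serpina5 (0.42) and Serpinf2 (0.35) changed sign in F1, as did Plat, Tmprss2 and Serpinb6a without chlordecone 2 (0.10, 0.19 and 0.15). Serpina5 in F3 ran from -3.49 to 5.35 leaving out 1 library. With the replicate block, 322 genes passed in F1, 8 in F3 and 49 for the difference, and Plau passed in F1 at 5.43 (SE 0.606). The labels number samples without naming pairs. In F3 not every sample correlated best with its own number, and the F1 correlations cannot test pairing. The causes of these shifts were not tested. With 2 F1 controls and a few counts, Plaur, Serpinb2 and Serpinf2 have no settled fold change.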
